A study of Mus musculus with 35 samples.

Results

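Distal sites that carried an H3K27ac peak in Ikaros-deficient pre-B cells and none in wild-type (WT) pre-B cells, and that had held Ikaros in WT, are described here. H3K27ac marks active enhancers and promoters. The members were chosen by 3 peak lists. Each is an H3K27ac peak of the IKDN library on chromosomes 1 to 19 or X, lies more than 2500 bp from the nearest annotated transcription start site (TSS), shares no base with a WT H3K27ac peak, and overlaps a WT Ikaros peak by at least 1 bp. Of 38528 IKDN H3K27ac peaks, 27521 were distal, 14482 of these were gained and 1634 of the gained peaks met the rule. That is 11.3% of the gained distal peaks (95% interval 10.8% to 11.8%). Below, these 1634 are called Ikaros-bound gained peaks, and the remaining 12848 Ikaros-free gained peaks.

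The 35 chromatin immunoprecipitation libraries came from mouse pre-B cell progenitors that adhere to stroma, at passages 3 to 8, either WT or IKDN. IKDN cells came from mice with a dominant-negative Ikaros allele and the CD2 Cre transgene, whose recombinase is expressed in lymphoid cells. 15 targets were mapped in both genotypes, Ikaros in WT only, and LHX2 and LMO2 in IKDN only. A peak list was used for 33 libraries, 16 WT and 17 IKDN, and the 2 input libraries were not analysed here. Each genotype and target had 1 library, so no difference between genotypes could be set against the spread between cultures and no p-value is given. A peak missing from such a bulk library can mean fewer cells with the mark or less of it per cell, which cannot be told apart. All intervals are 95% intervals over regions or genes and cover counting error only.

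Ikaros is a zinc finger transcription factor that lymphocyte development requires. It binds DNA around a GGGAA core and can recruit both activating and repressing chromatin complexes. In pre-B cells it works beside EBF1, PAX5, E2A and IRF4, which set the B lineage program, and its loss is known to leave pre-B cells adherent to stroma. Enhancers are usually marked by H3K4me1 and H3K4me2 before or while they gain H3K27ac, and the Mediator subunit MED1 is abundant at strong ones. H3K27me3 is the mark of Polycomb repression.

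3 facts about the libraries touch all that follows. The lists hold 2778 to 86562 peaks, and several IKDN lists are longer than the WT list of the same target. MED1 has 24201 peaks in IKDN and 12062 in WT, IRF4 29546 and 17942, ETS1 35438 and 22423, and TEAD1 47671 and 33450. The labels enter antibody code sc-349x for WT E2A, IKDN ETS1 and IKDN LHX2, code sc-6059x for IKDN E2A and both genotypes of IRF4 and PAX5, and code AM39297 for H3K4me1 and also IKDN H3K4me3. Whether the label or the antibody is wrong cannot be told apart from the data used here, so values of these libraries are given under their labelled targets. WT ETS1 is entered with sc-350x and WT H3K4me3 with AM39155, so the codes of E2A, ETS1 and H3K4me3 differ between genotypes. For these targets a difference between genotypes cannot be told apart from a difference of antibody. 3 lists are incomplete and were used only on their complete chromosomes, 11 for WT E2A, 19 for WT ETS1 and 18 for IKDN PAX5. The cells' label was checked against markers: H3K27ac lay in or within 2500 bp of 24 of 25 B lineage identity genes in WT and 23 in IKDN, and of 14 and 12 of 25 stromal fibroblast markers. H3K36me3, a mark of transcribed gene bodies, lay over 21 and 20 of the B lineage genes and over 3 and 5 of the stromal markers. The stromal genes Col1a1, Prrx1 and Pdgfra had no H3K36me3 in either genotype but 2.035, 5.955 and 1.755 kb of H3K27ac in WT, and 1.157 kb, 2.044 kb and 0 in IKDN.

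For 5 members at least 80% of the WT Ikaros peak lies inside a RefSeq promoter window of a long noncoding RNA gene, and their bases at the Ikaros peak are shown because they are the part of the members that Ikaros occupied. They are read on the plus strand of GRCm38 (mm10), and capitals mark GGGAA or its reverse complement TTCCC.
Epcam member, chr17:87613494-87613644: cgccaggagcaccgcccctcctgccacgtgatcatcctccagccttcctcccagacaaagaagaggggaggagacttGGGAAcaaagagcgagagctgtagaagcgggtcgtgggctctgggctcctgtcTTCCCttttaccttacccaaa
Mt1 member, chr8:94183260-94183436: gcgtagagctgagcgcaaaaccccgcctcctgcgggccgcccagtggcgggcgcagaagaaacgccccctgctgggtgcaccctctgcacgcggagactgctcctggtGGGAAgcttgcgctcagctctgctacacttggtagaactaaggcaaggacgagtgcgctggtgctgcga
B930018H19Rik member, chr8:34690006-34690182: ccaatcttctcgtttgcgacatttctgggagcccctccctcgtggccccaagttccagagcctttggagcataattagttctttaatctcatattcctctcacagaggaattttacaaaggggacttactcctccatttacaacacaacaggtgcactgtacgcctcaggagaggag
Mvb12b member, chr2:33908420-33908596: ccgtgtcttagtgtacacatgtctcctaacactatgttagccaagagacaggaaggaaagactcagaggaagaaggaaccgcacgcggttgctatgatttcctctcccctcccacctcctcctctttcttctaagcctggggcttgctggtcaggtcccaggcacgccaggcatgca
Nrbf2 member, chr10:67311401-67311577: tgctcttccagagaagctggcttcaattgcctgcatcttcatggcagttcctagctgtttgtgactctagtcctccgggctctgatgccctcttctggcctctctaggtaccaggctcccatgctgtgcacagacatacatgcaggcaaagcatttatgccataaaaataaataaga
The Epcam and Mt1 sites hold the core 2 times and 1 time, and the other 3 hold none in the bases shown. The Ikaros peaks at Epcam and Nrbf2 were low, with scores of 3.33 and 3.89, at percentiles 4.99 and 14.7 of the Ikaros list. Those at B930018H19Rik and Mvb12b scored 8.34 and 15.6. The Mt1 member lies 4.34 kb from the TSS of Mt1, which codes for a metallothionein, had an Ikaros score of 17.8, and carried H3K4me1, H3K4me2, H3K4me3, H3K27me3, ETS1, IRF4 and PAX5 peaks in WT. In IKDN it had lost the H3K27me3 peak and had peaks of RNAPII, MED1 and LHX2 besides H3K27ac. The Epcam member, 22.4 kb from the start of the epithelial adhesion gene, had only H3K4me2 of the WT libraries and gained H3K4me1, H3K4me3, RNAPII, ETS1, PAX5 and TEAD1 peaks. The B930018H19Rik member had PAX5 as its only factor beside Ikaros in the WT lists complete on that chromosome, and 7 factors in IKDN: PAX5, E2A, ETS1, IRF4, TEAD1, LHX2 and Aiolos. The deposited TSS distances do not count the starts of these RNA genes, and 33 members in all overlap a RefSeq promoter window.

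Letters could be searched only in promoter windows of 300 bp, of which 39 overlap a member and 16 of these touch its Ikaros peak. GGGAA, on either strand, occurs in 13 of the 16 (81.3%, exact interval 54.4% to 96.0%) and in 62.7% of all 32619 windows. TGGGAA, which contains GGGAA, occurs in 8 of 16 (50%, 24.7% to 75.3%) and in 25.4% of all windows; of the 39 windows, some of which overlap each other, 22 hold it (56.4%, 39.6% to 72.2%). GGAATG, whose GGAA can lie in the Ikaros core, and the E-box CAGCTG, which reads the same on both strands, each occur in 3 of 16 (18.8%, 4.05% to 45.6%), beside 14.6% and 16.4% of all windows. For the 16 windows all 4 intervals include the share of all windows, and a match is a description and no binding site.

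The values that chose the members are given as a description. Ikaros-bound gained peaks had a median width of 1171 bp and a median IKDN H3K27ac score of 21.1, a score being the authors' own height of a peak within a list. Ikaros-free gained peaks were narrower and weaker, with a median width of 500 bp and a median score of 8.21. Kept peaks, which are distal peaks of both genotypes with WT Ikaros, were wider and stronger, with medians of 2212.5 bp and 62.2. Of the members, 312 (19.1%) scored under 8.72, a score 2 times the lowest value of the WT H3K27ac list, so a WT peak just below calling cannot be told apart from none there; the same holds for 53.9% of the Ikaros-free peaks. The members lay at a median of 12553 bp from the nearest WT H3K27ac peak, and 66 of them within 1 kb of one. By the deposited annotation, 850 (52.0%) were intergenic and 723 (44.2%) intronic, against 28.2% and 65.6% of the Ikaros-free peaks.

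The members nearest to each limit were set beside the peaks just outside it. The nearest member to a TSS lies 2514 bp from that of Atf3, and a gained Ikaros-bound peak at Rd3 falls outside at 2481 bp. A member at Shb ends 1 bp from a WT H3K27ac peak, while a kept peak at Bcor overlaps one by 23 bp. The Cd200 member shares 1 bp with its Ikaros peak, and an Ikaros-free peak at 1700028I16Rik misses one by 1 bp. In all, 173 members overlap Ikaros by less than 88 bp.

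The WT Ikaros peaks inside members were of low height and mostly single. The members hold 1715 Ikaros peaks with a median score of 5.28, at the 36.3rd percentile of the Ikaros list, while those in kept peaks had a median of 10.3 and those in distal peaks lost in IKDN 6.67. A single Ikaros peak was present in 1555 members (95.2%), 2 in 77 and 3 in 2. Among kept peaks, which are wider, 73.4% held 1. The Ikaros peak lay in the central 50% of the member in 976 cases (59.7%), and its median distance from the centre was 223 bp.

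Most of these sites already carried enhancer methylation in WT cells, although they had no H3K27ac peak there. H3K4me1 peaks overlapped 1134 of the 1634 members in WT (69.4%, interval 67.1% to 71.6%), beside 17.5% of Ikaros-free gained peaks and 23.4% of all gained distal peaks. In IKDN cells the count was 1472 (90.1%), beside 47.5% and 52.3%. H3K4me2 was at 1015 members in WT (62.1%, background of all gained distal peaks 16.8%) and at 1375 in IKDN (84.1%, background 39.8%). Kept and lost distal peaks with Ikaros, which had H3K27ac in WT, carried these marks more often in WT than the members. WT H3K4me1 was at 96.6% of the kept and 91.9% of the lost peaks, and H3K4me2 at 96.8% and 87.2%. H3K4me3, which marks promoters, was less common, at 8.14% of members in WT (background 2.51%) and 15.0% in IKDN (background 5.7%). Region by region, 1078 members had H3K4me1 in both genotypes, 394 in IKDN only, 56 in WT only and 106 in neither. With the top-scored 50% of each list the WT H3K4me1 share was 44.2% in place of 69.4%, and its difference from the Ikaros-free peaks fell from 51.9 to 36.3 percentage points.

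**Figure D1:**
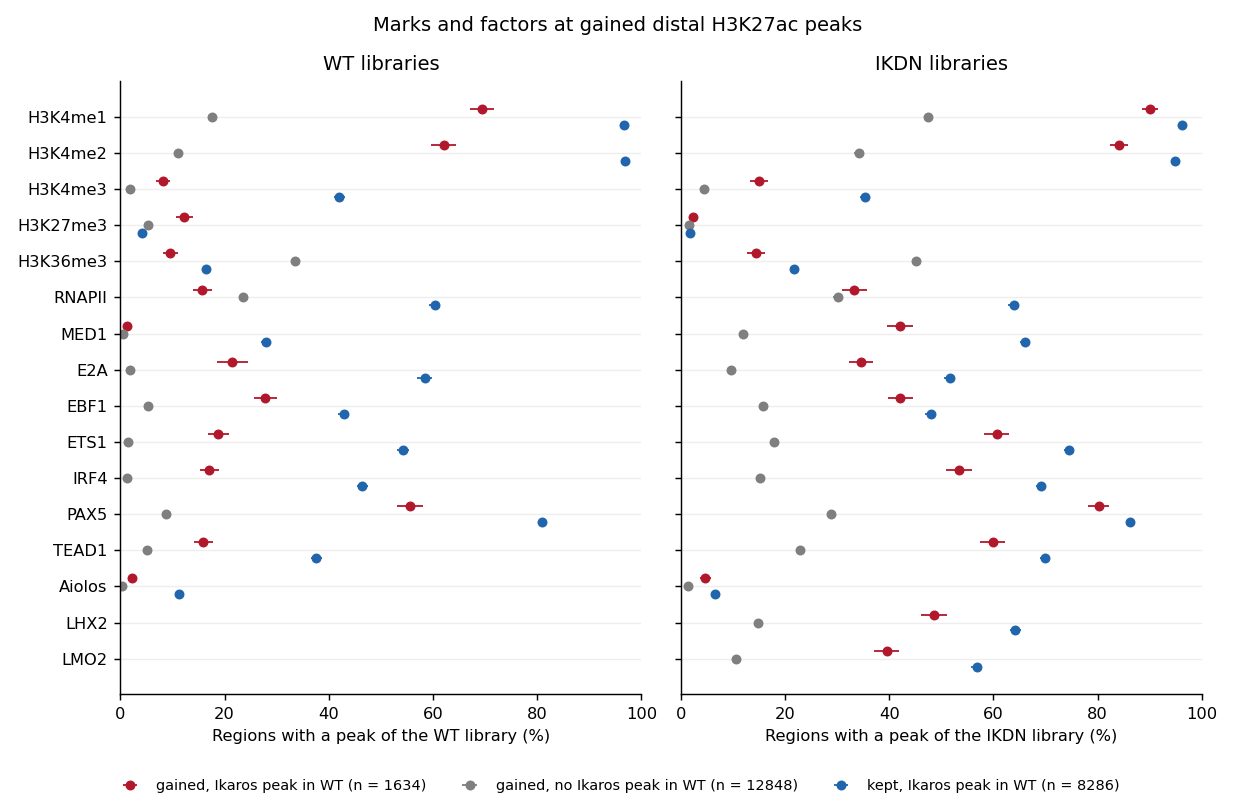
Share of regions with a peak of each library (x axis, percent) for Ikaros-bound gained peaks (red), Ikaros-free gained peaks (grey) and kept peaks with Ikaros (blue), in WT libraries (left) and IKDN libraries (right); bars are exact 95% intervals, and E2A and ETS1 in WT and PAX5 in IKDN use fewer regions than the legend gives. Red points lie between grey and blue for most targets, for example 59.9% for IKDN TEAD1 between 22.9% and 69.9%, and H3K36me3 has the grey point highest.

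Of the 14 targets other than H3K27ac mapped in both genotypes, H3K27me3 alone had a smaller share of the members in IKDN than in WT cells. It overlapped 201 members in WT (12.3%, background of all gained distal peaks 6.09%) and 38 in IKDN (2.33%, background 1.72%). Of the 201, 29 still had a peak in IKDN and 172 did not, while 9 members had one in IKDN only. The WT share was also above that of kept peaks with Ikaros (4.18%). H3K27me3 was less frequent in IKDN there too (1.79%), and at Ikaros-free gained peaks (5.30% in WT and 1.64% in IKDN). Members were chosen for H3K27ac in IKDN and none in WT. How much of these directions follows from that choice was not tested, so they are a description. Members with WT H3K27me3 carried MED1 in IKDN in 64.7% of cases (130 of 201), against 38.9% of the 1433 members without it, and H3K4me3 in 45.3% against 10.7%. RNA polymerase II phosphorylated on serine 5 (RNAPII) was at 4.98% of the 201 in WT and at 44.3% in IKDN. These members were also wider (median 1367 against 1122 bp) and higher in H3K27ac score (27.4 against 20.3), and the part of width in these differences was not tested.

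By WT chromatin, 1093 members (66.9%) had H3K4me1 or H3K4me2 without H3K27me3, 174 (10.6%) had both kinds of mark, 27 had H3K27me3 alone and 340 (20.8%) had none of these. Among Ikaros-free gained peaks 75.6% had none. The 367 members without H3K4me1 or H3K4me2 in WT still had H3K4me1 in IKDN in 79.6% of cases. They had MED1 in 34.6%, against 44.2% of the 1267 members that had either mark in WT, and LHX2 in 38.7% against 51.5%.

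MED1 was almost absent from the members in WT and present at many of them in IKDN. It overlapped 22 members in WT (1.35%, background of all gained distal peaks 0.608%) and 687 in IKDN (42.0%, interval 39.6% to 44.5%, background 15.3%). 677 members had MED1 in IKDN only, 12 in WT only and 10 in both. The MED1 share of kept peaks rose as well, from 27.9% in WT to 66.1% in IKDN. MED1 was present in IKDN only at 41.2% of kept peaks and 41.4% of members. The IKDN share of members exceeded that of Ikaros-free gained peaks by 30.2 points (27.7 to 32.6). The IKDN list is the longer: with equal peak numbers this excess fell to 9.70 points and the IKDN minus WT difference from 40.7 to 11.7 points, and with the top-scored 50% of each list they were 9.74 and 12.9. Members were chosen for H3K27ac in IKDN and none in WT. How much of the difference between genotypes follows from that choice was not tested, for MED1 or for any target above or below.

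RNAPII overlapped 257 members in WT (15.7%, background 22.6%) and 544 in IKDN (33.3%, background 30.5%). The WT share was below that of the Ikaros-free peaks and the IKDN share close to it. The IKDN minus WT difference of 17.6 points fell to 10.2 with the top-scored 50%. Among gained peaks in the middle class of 3 classes of width it was 4.61. These classes were cut at percentiles of width and are unequal, since 46.9% of gained peaks were at most 500 bp wide. H3K36me3 was at 9.55% of members in WT (background 30.9%) and 14.4% in IKDN (background 41.7%), below the Ikaros-free peaks in both genotypes, which are more often intronic.

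**Figure D2:**
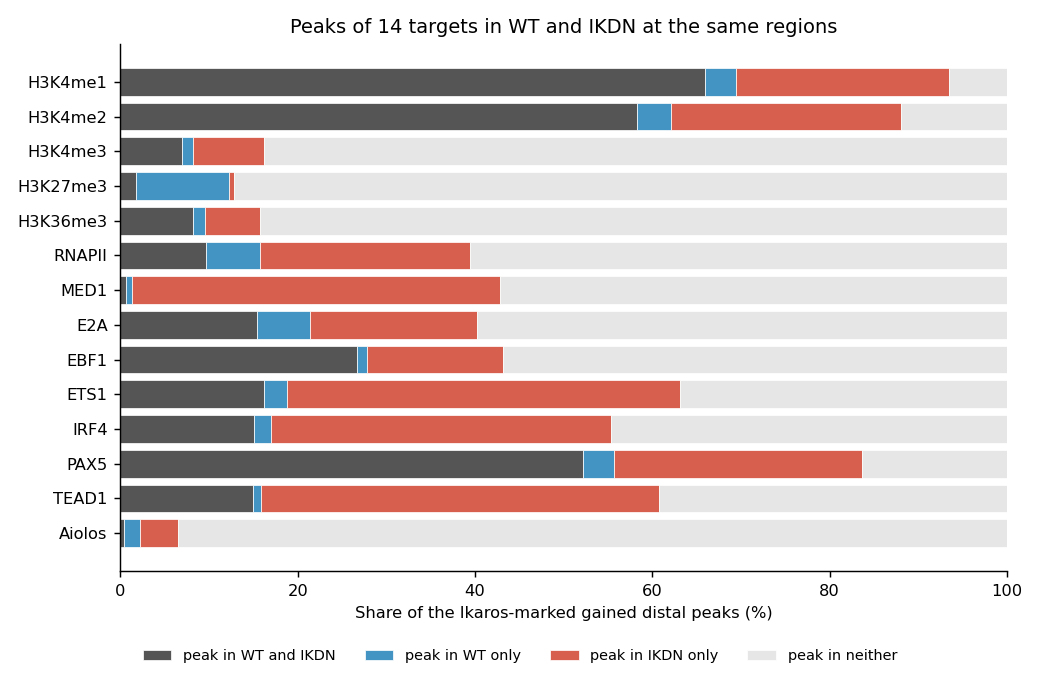
Stacked bars give the share of Ikaros-bound gained peaks (x axis, percent) with a peak of each target in both genotypes (dark grey), WT only (blue), IKDN only (red) or neither (light grey), for the 14 targets other than H3K27ac mapped in both. The red part is widest for TEAD1 (734 of 1634 members) and the blue part for H3K27me3 (172).

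B lineage factors sat at a sizable share of the members in WT and at a larger one in IKDN. As for MED1, the part of the choice of members in this rise was not tested. PAX5, the factor that commits cells to the B lineage, overlapped 908 members in WT (55.6%, background of all gained distal peaks 14%) and 1219 of 1520 in IKDN (80.2%, background 34.6%). EBF1, which acts with it, was at 454 (27.8%, background 7.77%) and 688 (42.1%, background 18.7%). WT PAX5 was more frequent at kept and lost distal peaks with Ikaros (81.0% and 71.2%) than at members. WT EBF1 was at 42.9% of the kept and 29.1% of the lost peaks, the latter with an interval that overlaps that of members. For both factors more members kept the WT peak than gained one: 794 had PAX5 in both genotypes and 425 in IKDN only, and EBF1 had 436 and 252. E2A, the E-box protein of the B program, was at 170 of 794 members in WT (21.4%, background 3.96%) and at 564 of 1634 in IKDN (34.5%, background 12.5%). The labels give E2A different antibody codes in WT and IKDN. The WT excess of PAX5 over Ikaros-free peaks, 46.8 points, fell to 22.9 with the top-scored 50% of each list, and the IKDN minus WT difference of EBF1, 14.3 points, fell to 8.51 in the middle class of width.

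IRF4 and ETS1 peaks were mostly present in IKDN only. The part of the choice of members in this was not tested either. IRF4, which drives pre-B cells out of the cycle and towards light chain rearrangement, overlapped 278 members in WT (17.0%, background 3.04%) and 873 in IKDN (53.4%, background 19.5%). 626 members had it in IKDN only and 31 in WT only. The IRF4 share of kept peaks rose as well, from 46.4% in WT to 69.1% in IKDN. ETS1, whose family recognises a GGAA core, was at 277 of 1471 members in WT (18.8%, background 3.4%) and 990 of 1634 in IKDN (60.6%, background 22.7%). Its share of kept peaks rose as well, from 54.3% in WT to 74.5% in IKDN. The labels give ETS1 different antibody codes in WT and IKDN, and its difference between genotypes was not recomputed under other settings. The IKDN minus WT difference of IRF4, 36.4 points, was 19.5 with equal peak numbers and 21.5 with the top-scored 50%. Aiolos, the close relative of Ikaros, had a peak at only 37 members in WT (2.26%, background 0.518%) and 77 in IKDN (4.71%, background 1.82%), and 7 members had it in both. Its lists are the shortest of the series, so few overlaps were detectable.

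3 factors known outside the B lineage were common at the members in IKDN. TEAD1, the DNA-binding partner of YAP in the Hippo pathway, overlapped 259 members in WT (15.9%, background 6.39%) and 979 in IKDN (59.9%, interval 57.5% to 62.3%, background 27.1%). LHX2, a LIM homeodomain factor of epithelial and blood progenitors, overlapped 794 (48.6%, background 18.6%), and LMO2, the bridging protein of TAL1 and E-protein complexes in blood stem cells, 646 (39.5%, background 13.9%). 734 members had TEAD1 in IKDN only, 245 in both and 14 in WT only. The TEAD1 share of kept peaks rose as well, from 37.6% in WT to 69.9% in IKDN. As for MED1, the part of the choice of members in the TEAD1 rise was not tested. All 3 factors met at 371 members (22.7%), beside 5.56% of Ikaros-free and 39.5% of kept peaks, and 390 members (23.9%) had none of them. With equal peak numbers the IKDN TEAD1 share was 52.3%. With the top-scored 50% of each list the excess of LHX2 over Ikaros-free peaks fell from 33.8 to 21.2 points.

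Counted together over the 8 factor lists that are complete in IKDN, 145 members (8.87%) had no factor and 531 (32.5%) had 5 or more. Of the Ikaros-free gained peaks 61.0% had no factor, and of the kept peaks 51.2% had 5 or more. Using only Aiolos, EBF1, TEAD1 and LMO2, whose antibody codes are entered for no other target, 78.9% of members and 31.7% of Ikaros-free peaks had at least 1 factor. In WT, 418 members (25.6%) had none of Aiolos, EBF1, IRF4, PAX5 and TEAD1 beside Ikaros. These 418 had TEAD1 in IKDN in 47.4% of cases and MED1 in 28.9%, against 64.2% and 46.5% of the members with at least 1 of the 5.

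Pairs of factors met at the same members to unequal degrees. Of the 564 members with E2A in IKDN, 435 (77.1%) also had LMO2, against 39.5% of all members. As a share of members with either factor, this pair gave the highest value, 56.1%, among the pairs of the 8 factors with complete IKDN lists, followed by ETS1 with IRF4 at 55.6% and TEAD1 with IRF4 at 55.1%. PAX5, on the chromosomes complete in its list, gave 62.8% with ETS1, 61.1% with TEAD1 and 56.8% with IRF4, and it is the most frequent factor. The labels give WT E2A, IKDN ETS1 and IKDN LHX2 the same antibody code, and IKDN E2A, IRF4 and PAX5 another, as stated above.

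Since wider H3K27ac peaks overlap more of any list, members and Ikaros-free peaks were also compared within 4 classes of width. The members had the larger share with an IKDN peak of MED1, TEAD1, LHX2, LMO2, IRF4, ETS1, PAX5, EBF1, E2A, H3K4me1, H3K4me2 and H3K4me3 in 4 of 4 classes, each time with an interval above 0. The size of the difference changed with width. TEAD1 was at 35.6% of 320 members and 7.70% of 6471 Ikaros-free peaks up to 500 bp wide, and at 84.3% of 376 and 76.3% of 1209 above 2000 bp. MED1 went from 16.3% against 2.74% to 65.2% against 53.1%. H3K36me3 was lower at the members, with the interval below 0 in 3 of 4 classes, and RNAPII in IKDN was higher at the members in 1 class and lower in the others.

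**Figure D3:**
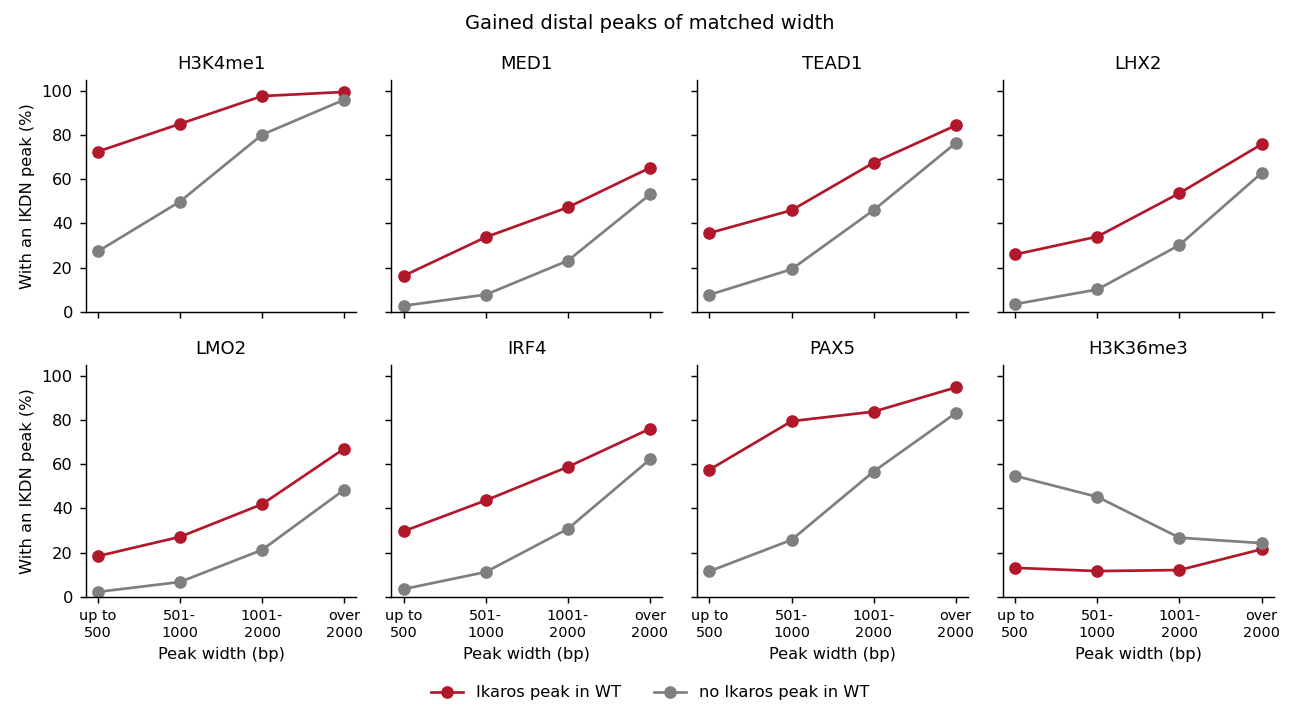
Share of gained distal peaks with an IKDN peak of 8 targets (y axis, percent) in 4 classes of H3K27ac peak width (x axis, bp), for peaks with WT Ikaros (red) and without (grey). Both lines rise with width for every target but H3K36me3, and the gap narrows in the widest class, for TEAD1 from 27.9 to 7.96 points.

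At the Ikaros sites themselves the IKDN factors were close to where Ikaros had been. Of the 1715 WT Ikaros peaks in members, an IKDN PAX5 peak overlapped 68.7%, ETS1 51.1%, IRF4 46.1%, TEAD1 44.4%, LHX2 37.8%, LMO2 33.6%, EBF1 31.8% and E2A 27.3%. Of the 3540 Ikaros peaks in distal H3K27ac peaks lost in IKDN, the same lists overlapped 34.9%, 16.3%, 16.4%, 16.7%, 15.8%, 13.1%, 14.1% and 9.75%. In WT cells the order of these 2 kinds of site was the other way for PAX5 (46.8% in members, 57.4% in lost peaks), IRF4 (16.0% and 23.6%) and TEAD1 (10.96% and 13.7%). It was not for EBF1, at 22.4% and 21.5%, whose intervals overlap. Members were chosen for an H3K27ac peak in IKDN and none in WT, and lost peaks for the reverse. How much of these orders follows from that choice was not tested, so they are a description. IKDN PAX5 and TEAD1 were as frequent on Ikaros sites in members as on those in kept peaks or more so (61.5% and 42.3% in kept peaks), while LMO2 and E2A were more frequent in kept peaks (41.7% and 36.3%). Median distances between the centre of the Ikaros peak and the nearest factor peak, over members that had the factor, were 47 bp for Aiolos (77 members) and 51 bp for IRF4, and up to 90 bp for TEAD1, with LHX2 at 79 bp, and 71.6% of the IRF4 and 53.6% of the TEAD1 peaks lay within 100 bp. IKDN IRF4 and TEAD1 peaks are wider than the WT ones (medians of 230 against 168 bp and 276 against 176 bp), and the part of width in these overlaps was not tested.

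**Figure D4:**
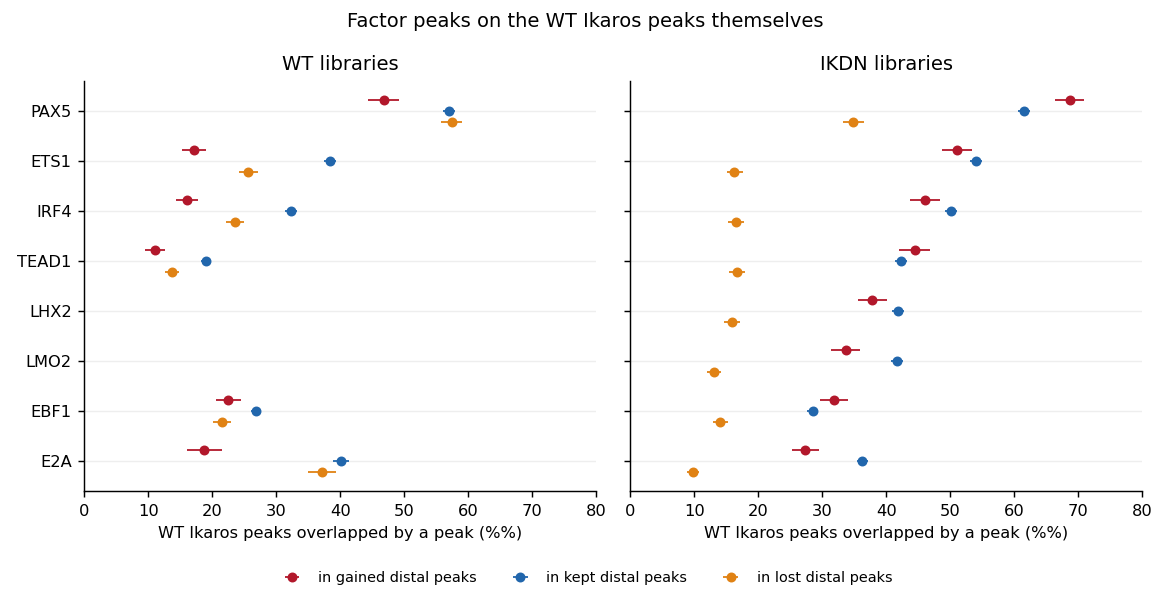
Share of WT Ikaros peaks overlapped by a factor peak (x axis, percent, exact 95% intervals) in gained (red), kept (blue) and lost (orange) distal H3K27ac peaks, for WT libraries (left) and IKDN libraries (right). On the right the orange points lie below the red and blue ones for all 8 factors, for example 16.7% against 44.4% and 42.3% for TEAD1. The sets were chosen by H3K27ac in WT and IKDN, so this order is a description.

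The members were spread over the genome. Their share among gained distal peaks ran from 8.22% on chromosome 12 to 14.9% on X, where 20 of 134 were members. Joining members within 10 kb of each other left 1562 single members or clusters, of which 65 held 2 or more. The largest cluster, with 5 members, lies at chr6:47748264-47772764 near Rn4.5s, a small RNA gene repeated in tandem, where reads from near-identical copies cannot be placed with certainty. These 5 members hold 5 of the 10 highest Ikaros scores of the set, between 51.4 and 54.5, and share 1 profile in WT, with H3K4me2, H3K4me3, ETS1, IRF4 and PAX5 but no H3K4me1. A cluster of 3 members lies near Fosb, an AP-1 subunit gene, and another near Ccl9, a chemokine gene.

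The members with the highest IKDN H3K27ac scores were broad regions at which most IKDN libraries had a peak. The highest, 752.7, lay 4.998 kb from the TSS of Spry4, a Sprouty inhibitor of receptor tyrosine kinase signalling, at chr18:38590085-38602455. In WT it had Ikaros with a score of 39.5, H3K4me1, H3K4me2, H3K4me3, H3K27me3 and peaks of Aiolos, E2A, EBF1, ETS1, IRF4, PAX5 and TEAD1. In IKDN, H3K27me3 was gone and RNAPII, MED1, H3K36me3, LHX2 and LMO2 were present. Spry4 had 5 members, as many as any gene, and its H3K36me3 coverage went from 0 to 5.14 kb from WT to IKDN. The second, 626.1, lay 132 kb from Max, the partner of MYC, and had only H3K4me1 and H3K4me2 in WT. It had E2A, ETS1, IRF4, PAX5, TEAD1, LHX2 and LMO2 in IKDN, while H3K36me3 over Max went from 21.8 to 22.2 kb.

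Other members of the top 10 by score differed in what they carried in WT. The Phactr1 member (567), in a regulator of actin and phosphatase 1, had H3K4me2, E2A, IRF4, PAX5 and TEAD1 in WT and all 9 IKDN factors, and H3K27me3 over the gene covered more in IKDN (64.2 kb) than in WT (15.9 kb). The Kcng2 member (521.6), near a potassium channel subunit gene, and the Cmtm8 member (368.7), near a MARVEL domain gene, had H3K4me1, H3K4me2 and H3K27me3 in WT and no H3K27me3 in IKDN. H3K36me3 over Cmtm8 went from 0 to 24.7 kb and H3K27me3 from 4.69 kb to 0. The 2610035D17Rik member (507.2) had E2A, EBF1 and PAX5 in WT without H3K4me1, H3K4me2 or H3K27me3. The Tal2 member (301.1), near a relative of the stem cell factor TAL1, had H3K4me1, H3K4me2 and EBF1 in WT and all 9 factors in IKDN, and H3K36me3 and RNAPII over Tal2 were 0 in both genotypes. The members at Gm1604b (445), Mir7221 (381.7) and Mrgpra2a (341.8) had MED1, LHX2, LMO2 and TEAD1 in IKDN as well.

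The members with the highest WT Ikaros scores outside Rn4.5s were at Slc37a3 (66.1), a sugar phosphate carrier gene, Try4 (41.1), Lmtk2 (40.3), Spry4 (39.5) and Jak1 (38.3). Jak1 codes for a kinase of the interleukin-7 receptor. The 5 members had H3K4me1, H3K4me2, IRF4 and PAX5 in WT, and MED1, ETS1, IRF4, PAX5, TEAD1 and LHX2 in IKDN. The Jak1 member lies at chr4:101297672-101299063, 33.1 kb from the TSS. From WT to IKDN, H3K36me3 went from 9.97 to 38.7 kb over Slc37a3 and from 26.8 to 42.9 kb over Jak1, while RNAPII over Jak1 went from 19.3 to 2.38 kb.

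Genes nearest to the members, by the deposited annotation, were compared through libraries that did not choose them. A gene was called where the covered length over its body differed by at least 1000 bp and 1.5 times. 1365 members had a protein-coding nearest gene, 1155 genes in all, which is 5.34% of 21627. H3K36me3 was called higher in IKDN at 322 of the 1155 (27.9%, interval 25.3% to 30.6%, all genes 12.5%) and lower at 24 (2.08%, all genes 2.21%). The 4387 genes nearest to Ikaros-free gained peaks only had 22.5% higher. H3K27me3 was called lower at 267 (23.1%, interval 20.7% to 25.7%, all genes 10.5%) and higher at 90 (7.79%, all genes 11%), and the Ikaros-free genes had 12.7% lower. The RNAPII calls were higher at 280 (24.2%, all genes 13.4%) and lower at 241 (20.9%, all genes 13%), close to the 22.3% and 20.4% of Ikaros-free genes, so both directions were frequent. The RNAPII libraries differ in inferred depth, with 34.7 M tags in WT and 24.2 M in IKDN. The part of depth in the RNAPII lengths given for genes was not tested. Over genes with at least 2 members the excess over all genes was larger, 26.9 in place of 15.4 points for H3K36me3 higher, 20.1 in place of 12.7 for H3K27me3 lower and 18.9 in place of 10.8 for RNAPII higher.

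Genes near members were long, with a median of 42956 bp against 31324 bp for the Ikaros-free genes and 17330 bp for all. Within 3 classes of length, H3K27me3 was called lower at 16.2%, 25.4% and 26.8% of genes near members and at 7.94%, 12.7% and 18.3% of Ikaros-free genes, with intervals that do not overlap in any class. For H3K36me3 the intervals were apart only above 60 kb, with 42.6% against 31.5%. Up to 20 kb both were at 14.3%, and between 20 and 60 kb they were at 21.8% and 23.1%. Genes near members can have Ikaros-free gained peaks as well, and the number of gained peaks per gene was not matched.

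**Figure D5:**
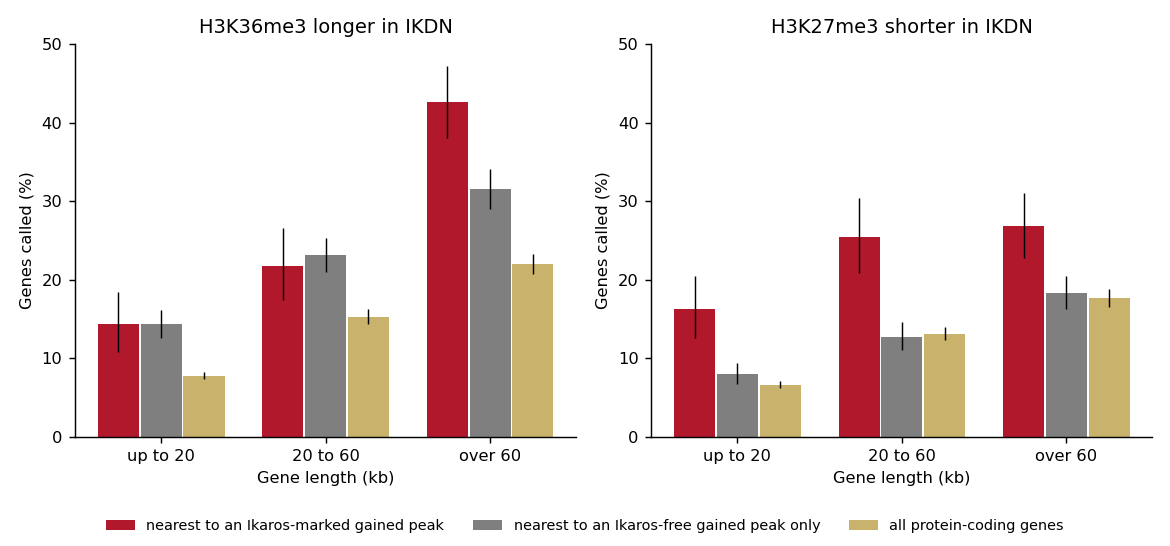
Share of genes called (y axis, percent, exact 95% intervals) with longer H3K36me3 (left) or shorter H3K27me3 (right) in IKDN, in 3 classes of gene length (x axis, kb), for genes nearest to Ikaros-bound gained peaks (red), to Ikaros-free gained peaks only (grey) and all protein-coding genes (yellow). The H3K27me3 bars are higher for red than grey in each class, and the H3K36me3 bars only above 60 kb (42.6% against 31.5%).

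By function, the gene lists held few genes with a member each, beside 5.34% of all protein-coding genes. Members were nearest to 7 of 27 growth factor, Wnt, Notch and TGF-beta genes, 6 of 25 cytoskeleton and small GTPase genes, 5 of 30 integrin and focal adhesion genes and 5 of 25 pre-B genes. They were nearest to 4 of 30 junction genes, 4 of 30 progenitor transcription factor genes, and 3 of 25 each of the B lineage identity, Hippo and cell cycle genes. Lists of other cell types had 2 of 25 stromal, 1 of 20 T cell, 1 of 20 myeloid and 0 of 16 erythroid genes, and 1 of 20 housekeeping genes had a member. With so few genes the intervals are wide, for the growth factor list 11.1% to 46.3%, and the lists differ in gene length from all genes. Ikaros-free gained peaks were nearest to 59.3% of the growth factor and 72% of the cytoskeleton list, beside 23.7% of all genes. Kept peaks were nearest to 44.4% and 48%, beside 17.8%. Below all genes lay the myeloid and erythroid lists for Ikaros-free peaks (20% and 6.25%) and the stromal list for kept peaks (8%).

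Among adhesion and cytoskeleton genes, Trio, an activator of Rac and RhoG, had 3 members, the highest with a score of 164.2, beside 25 Ikaros-free gained peaks. H3K36me3 covered 0.501 kb of Trio in WT and 186 kb in IKDN, RNAPII 10.04 and 98.8 kb, and H3K27me3 16.2 kb and 0. Dock1, which activates Rac at integrin contacts, had 1 member with no peak but Ikaros in the WT lists complete on that chromosome, and H3K36me3 of 0 and 203 kb. Tpm1, a tropomyosin gene, had 10.1 and 14.01 kb of H3K36me3 and 26.99 and 5.11 kb of RNAPII. Tns3, a tensin that ties integrins to actin, had 2 members and 25.3 kb of H3K36me3 in WT against 137 kb, and 27 Ikaros-free gained peaks as well. Itgb1, the integrin beta-1 chain, had 2 narrow members of 500 bp with scores of 7.04 and 9.38, and H3K36me3 of 23.2 and 29.4 kb. Itga2 had a member with MED1 in both genotypes, with TEAD1, LHX2 and LMO2 in IKDN, and no H3K36me3 or RNAPII in either genotype. Of the junction genes, Pard3, a polarity scaffold, had 0.501 and 48.2 kb of H3K36me3 and 14.9 and 34.4 kb of H3K27me3, so both were longer in IKDN. Epcam and the endothelial cadherin gene Cdh5 had no H3K36me3 in either genotype.

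Hippo, growth factor and progenitor genes with members are given in the same order, WT before IKDN. Nuak2, a kinase induced by YAP, had H3K36me3 of 1.82 kb in WT against 12.9 kb, and Wwc2, of the KIBRA family, 0 and 77.7 kb. At Tead1 itself H3K36me3 went from 0 to 29.6 kb and H3K27me3 from 5.83 to 0.767 kb, while RNAPII went from 35.6 to 16.1 kb. Its member had TEAD1, LHX2 and LMO2 peaks in IKDN. Smad3, a transducer of TGF-beta, had 23.8 and 55.9 kb of H3K36me3, while Tcf7l2, a Wnt effector, had 46.6 and 47.6 kb and Spry1, a relative of Spry4, 1.92 and 2.51 kb. Lmo2 had 2 members, 1 of which lost H3K27me3, and its own H3K27me3 coverage went from 14.2 kb to 0, with H3K36me3 at 3.79 and 10.5 kb. The blood transcription factor genes Fli1 and Runx1 differed by less, at 75.9 and 89.5 kb and at 200.7 and 183.7 kb, and Runx1 had 20 Ikaros-free gained peaks beside its 1 member. The 3 cell cycle genes went 3 ways. Ccnd1, the cyclin D1 gene, had 0.149 and 7.85 kb of H3K36me3, and Mcm5, of the replicative helicase, 18.2 and 18.1 kb. Mycn, a MYC family gene, had 4.21 kb and 0, and its H3K27me3 went from 0 to 5.74 kb.

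Of the 8 B lineage and pre-B genes with members, Foxo1, Irf8, Pou2af1, Pou2f2 and Ikzf1 had H3K36me3 lengths within 1.5 times of each other in WT and IKDN, and Cd2 had none in either. Foxo1, which supports rearrangement of immunoglobulin genes, had 4 members beside 12 kept Ikaros-bound peaks, with H3K36me3 of 24.7 and 22.9 kb and RNAPII of 81.8 and 22.3 kb. Irf8 had 2 members and 16.7 and 17.8 kb of H3K36me3, and Pou2af1 1 member and 23.5 and 23.6 kb. The other two were longer in IKDN: Bcl6, a repressor of germinal centre B cells, at 3.155 and 13.2 kb, and Ikzf3, which codes for Aiolos, at 3.96 and 51.9 kb. The Ikzf3 member at chr11:98513889-98518262 had a score of 148.6 and an Ikaros score of 24.2, and it carried MED1, TEAD1, LHX2 and LMO2 in IKDN. RNAPII over Ikzf3 went from 80.5 to 16.6 kb, so H3K36me3 and RNAPII differed in direction. The WT RNAPII library is the deeper by inference, as stated above, and the part of depth in this was not tested.

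The remaining protein-coding genes among the 10 with most members did not move together. Zak, which codes for a stress-activated kinase, had 6.17 kb of H3K36me3 in WT and 66.0 kb in IKDN, and Rap1gap2, an inhibitor of Rap1, 0 and 19.2 kb. Fos, an AP-1 subunit gene, had 1.115 and 2.44 kb, and Zfp608 23.9 and 34.3 kb, while their RNAPII was shorter in IKDN, 3.385 against 0.624 kb and 67.6 against 10.1 kb. Zmat4 had none in either genotype. Genes of other cell types and housekeeping genes with a member were flat or without H3K36me3, except Cd247. The smooth muscle actin gene Acta2 had 3.17 and 3.14 kb, the chemokine gene Cxcl12 0 and 0, Csf2ra 1.85 and 1.92 kb and the cyclophilin gene Ppia 3.21 and 3.04 kb. Over Cxcl12, RNAPII went from 2.14 to 7.10 kb and H3K27me3 from 3.40 to 12.2 kb. Cd247, the T cell receptor zeta chain gene, had 2.49 and 4.39 kb of H3K36me3, which met the limits for a higher call. Its H3K27me3 went from 15.1 kb to 0.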

How the data were processed

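Peak lists of 33 chromatin immunoprecipitation libraries were analysed, 1 per genotype and target. HOMER, BWA, STAR and bcl2fastq 1.8.3 are the tools listed per the submitters' processing notes, beside the builds mm10 and mm9; their roles are not given in the sources used here. Each deposited peak has a score in the authors' own scale and its distance to the nearest TSS. The positions match mm10: the deposited distances place 99.7% of 33951 start sites at most 1000 bp from the named gene in GRCm38. Scores are whole multiples of a step, and if they are scaled to 10 M tags, which is an inference, the H3K27ac libraries hold 25.6 M tags in IKDN and 25.2 M in WT, Ikaros 36.0 M and the others 10.7 to 37.5 M. By the same inference RNAPII holds 34.7 M in WT and 24.2 M in IKDN, and H3K36me3 21.0 M and 20.4 M. For IKDN H3K4me1 no step was found. Scores were not compared between lists, except in the limit of 8.72 on members.

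Overlaps were computed with Python 3.11.15, numpy 2.4.6 and pandas 2.3.3, and exact Clopper-Pearson intervals with scipy 1.17.1. Newcombe intervals of differences between members and Ikaros-free peaks came from statsmodels 0.14.6. For IKDN minus WT differences and excesses over all genes, the exact interval of 1 share was shifted by the other share. The error of that other share is left out. The overlap functions were tested on simulated data. Chromosomes on which a list ended over 10 Mb before the other lists were left out for that list. Gene bodies came from RefSeq GRCm38. No genome was used, so sequences come from RefSeq promoter windows only, and the 5 shown were chosen for lying in one. Members on chromosome 18 and windows of protein-coding genes were left out of that choice. Members and lists were chosen with earlier results of these data known. Named genes are those nearest to the 10 members highest in H3K27ac score and the 10 highest in Ikaros score, the 10 genes with most members and up to 3 genes per list. Mt1, Mvb12b, Nrbf2, the threshold examples, the markers Col1a1, Prrx1 and Pdgfra, Fosb, Ccl9, Bcl6 and Ikzf1 were named after their values were seen. Classes of width, of gene length and the choice of 4 factor lists were added after seeing the data.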

Additional observations from a re-analysis of the deposited data

How the results depend on the processing

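20 results were recomputed under 15 settings, with 159 values in all. Of the 153 shares and differences, 87 lay within the interval of the reported value and 66 outside it. No difference changed direction, and single shares have no direction to change. The other 6 values are counts of members: 1495 with 50% overlap, 1568 with a 1000 bp gap to WT H3K27ac, 1690 and 1269 with TSS limits of 1000 and 10000 bp, 1322 with the top-scored 50% of the gained peaks and 658 with that of the Ikaros list, beside 1634. No paired analysis was possible because each genotype and target has 1 library.

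With at least 50% of the shorter interval overlapping, the WT H3K27me3 share of members was 10.6% and the MED1 excess over Ikaros-free peaks 32.6 percentage points. With the top-scored 50% of the other lists, the WT H3K4me1, WT H3K27me3 and IKDN TEAD1 shares were 44.2%, 9.61% and 43.5%. The excess over Ikaros-free peaks was then 36.3 points for WT H3K4me1, 22.9 for WT PAX5, 27.6 for IKDN TEAD1, 21.2 for LHX2 and 9.74 for MED1, and the IKDN minus WT difference 21.5 for IRF4, 33.5 for TEAD1, 12.9 for MED1 and 10.2 for RNAPII.

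With the top-scored 50% of the Ikaros list the WT H3K4me1 and IKDN TEAD1 shares were 80.4% and 64.1%, the excess was 59.7 (H3K4me1), 61.1 (WT PAX5), 40.8 (LHX2) and 39.6 points (MED1), and the MED1 difference between genotypes 50.6. With the top-scored 50% of the gained peaks the shares were 71.8% and 65.5%, the excess 47.9 (H3K4me1), 24.8 (TEAD1), 25.7 (LHX2) and 24.3 (MED1), and the IKDN minus WT differences 17.1 (EBF1), 41.6 (IRF4), 48.7 (TEAD1), 45.8 (MED1) and 22.6 (RNAPII).

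In a 1000 bp window at the peak centre, the IKDN TEAD1 share was 54.4%, the excess 40.8 (WT PAX5), 31.4 (TEAD1) and 29.0 (LHX2), and the IKDN minus WT differences 31.6 (IRF4) and 40.5 (TEAD1). With equal peak numbers the TEAD1 share was 52.3%, the excess 32.8 (TEAD1) and 9.70 (MED1), and the IKDN minus WT differences 10.2 (EBF1), 19.5 (IRF4), 36.5 (TEAD1) and 11.7 (MED1). In the middle class of width the WT H3K4me1 and IKDN TEAD1 shares were 66.0% and 44.0%, the excess 47.8 (H3K4me1), 26.2 (TEAD1), 22.9 (LHX2) and 24.96 (MED1), and the IKDN minus WT differences 8.51 (EBF1), 25.9 (IRF4), 30.9 (TEAD1), 30.9 (MED1) and 4.61 (RNAPII). Beyond 10 kb from a TSS the WT H3K27me3 share was 10.3%.

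For genes near members, the excess over all genes was 11.4 (H3K36me3), 8.17 (RNAPII) and 10.1 points (H3K27me3 lower) at 2000 bp and 2 times. It was 26.9, 18.9 and 20.1 with at least 2 members, and 15.4 for H3K27me3 with 10 kb on each side. With 4 factor lists, 78.9% of members and 31.7% of Ikaros-free peaks had a factor. Beyond what each setting removes by its own construction (fewer peaks, narrower windows), the cause was not tested. No share or difference lay outside the interval of the reported value with a 1000 bp gap to WT H3K27ac, a 1000 bp TSS limit or members within 50 kb.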
